A study of Mus musculus with 24 samples.

Results

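Olfactory sensory neurons are the odour-detecting cells of the nasal epithelium, and 10 genes that these cells are known for were read in 24 RNA-seq libraries of mouse brain: Omp, Cnga2, Cnga4, Cngb1, Stoml3, Rtp1, Ano2, Adcy3, Gnal and S100a5. They were picked by symbol from 46078 gene identifiers, with their high values in these libraries already known. The study set wild-type (WT) mice against Shank2 knock-out (KO) mice, both of strain C57BL/6N, naïve, aged 14 days (P14, postnatal day 14) or 25 days (P25). Each of the 4 groups (P14 WT, P14 KO, P25 WT, P25 KO) held 6 libraries, and the labels mark replicates 4 to 6 of each as a second batch. The series' design text gives 6 mice per group, and the labels do not say which Shank2 exons the KO allele lacks or how the brain tissue was cut.

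The libraries were described in 3 sets by their Omp value. P14 WT replicate 5 had Omp above 10000. P25 KO replicate 4 and P14 KO replicates 4 and 6 had Omp between 400 and 1000, and the other 20 libraries lay below that range. Just inside the lower limit stood P14 KO replicate 6 at 457, and just outside it P14 WT replicate 3 at 77.8. All 4 libraries with Omp of 400 or more belong to the second batch. Because Omp made the sets and the genes were picked for their high values, the values between sets are a description with no test.

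In an olfactory sensory neuron, an odorant binds a receptor in the cilia, and the receptor activates the G protein subunit encoded by Gnal. Adenylyl cyclase 3 (Adcy3) then makes cyclic AMP, which opens a channel built from Cnga2, Cnga4 and Cngb1 subunits, and entering calcium opens the chloride channel encoded by Ano2. Rtp1 helps receptors reach the cell surface, Omp is the abundant cytoplasmic marker of mature neurons, Stoml3 is a stomatin-family membrane protein of the cilia, and S100a5 is a small calcium-binding protein. The axons of these neurons run through the skull into the olfactory bulb, where they contact mitral and tufted cells. Gnal and Adcy3 are also used in brain, Gnal above all in the striatum and Adcy3 in the primary cilia of neurons.

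Promoter windows of 300 bases (250 before to 50 after each RefSeq start, GRCm38.p6) were found for 7 of the 10 genes; Omp, Rtp1 and Gnal had no entry. The windows of the cyclic-nucleotide channel gene Cnga2 and of the genes Stoml3 and S100a5 are shown because those genes differed in where their RNA was found: Cnga2 was high in 1 library only, Stoml3 and S100a5 in 4. Capitals mark CCCNNGGG, the core of the site bound by Ebf factors, which was searched on both strands and reads the same on each.
Cnga2, chrX:71991599-71991898, plus strand: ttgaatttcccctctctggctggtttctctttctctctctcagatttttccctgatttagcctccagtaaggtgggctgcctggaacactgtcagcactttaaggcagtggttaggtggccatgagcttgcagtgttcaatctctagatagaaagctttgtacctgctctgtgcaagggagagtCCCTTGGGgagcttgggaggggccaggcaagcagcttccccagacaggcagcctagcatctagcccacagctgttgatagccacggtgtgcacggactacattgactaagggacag
Stoml3, chr3:53488457-53488756, plus strand: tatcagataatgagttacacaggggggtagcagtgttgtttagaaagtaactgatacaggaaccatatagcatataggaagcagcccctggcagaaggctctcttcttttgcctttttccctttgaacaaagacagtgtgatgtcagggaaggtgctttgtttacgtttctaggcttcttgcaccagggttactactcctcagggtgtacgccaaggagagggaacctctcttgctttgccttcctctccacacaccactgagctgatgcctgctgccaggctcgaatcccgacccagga
S100a5, chr3:90608272-90608571, plus strand: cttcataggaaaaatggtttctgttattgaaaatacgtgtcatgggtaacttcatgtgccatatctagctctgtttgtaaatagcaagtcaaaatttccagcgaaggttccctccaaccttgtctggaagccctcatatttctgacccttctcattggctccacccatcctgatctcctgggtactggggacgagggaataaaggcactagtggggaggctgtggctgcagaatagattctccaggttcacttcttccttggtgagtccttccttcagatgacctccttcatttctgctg
Cnga2 held CCCTTGGG beginning 66 bases before the start. Matches also began 129 bases before the start of Cngb1 (CCCGTGGG), 67 bases before 1 of 3 Ano2 starts (CCCGAGGG; this start lies inside the gene, and the windows of the other 2 starts, at its 5′ end, had none) and 24 bases after that of Cnga4 (CCCCAGGG). Thus 4 of the 10 windows of these 7 genes had a match, 1 for each of the channel genes, against 13.7% of 32851 windows of all genes and 3.06% of 948 windows of olfactory receptor genes. The homeodomain core TAATTA, which reads the same on both strands, was in 0 of these 10 windows, in 5.29% of all windows and in 18.6% of receptor windows. These matches describe the letters of the windows only.

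Recovered read totals were 27552844 to 40787586 per library, and values are read counts divided by a size factor of each library. Shank2, the targeted gene, ran from 3932 to 12778 in P14 WT and from 1899 to 6458 in P14 KO, which overlap, and from 6382 to 13358 in P25 WT and from 2217 to 5153 in P25 KO, which do not. Its KO minus WT difference was -0.93 (SE 0.26) on the log2(value + 1) scale at P14 and -1.33 (SE 0.26) at P25, with limma adjusted p of 0.999884 and 0.446 (n = 6 per group). The cerebellar granule cell gene Cbln3 was above 1000 in 9 libraries and between 18.3 and 51.8 in the others, so libraries of the same group differed in their mix of brain regions. In whole-tissue RNA such as this, fewer cells of a type and less RNA per cell cannot be told apart.

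All 10 genes were highest in P14 WT replicate 5, and 8 of 10 exceeded every other library there by more than 4 times. Over the 18267 genes whose mean reached 10, these shares were 19.3% and 2.35%; the choice of the genes used this contrast. Their median log2(value + 1) stood 7.18 above the median of the 20 libraries with little Omp, beside a median of -0.00075 over all genes. In the 3 libraries with intermediate Omp the same median difference was 0.22, beside -0.0093 over all genes. Only Omp, Stoml3 and S100a5 lay above all 20 libraries in all 3 of them (3 of 10, background 3.27%). Among the 501 genes that were more than 4 times the highest of the 20 in P14 WT replicate 5, the background was 11.8%. Omp is among the 3 because it defined the libraries, and S100a5 entered the tested genes only through its high libraries, so nothing is read from these counts.

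**Figure D1:**
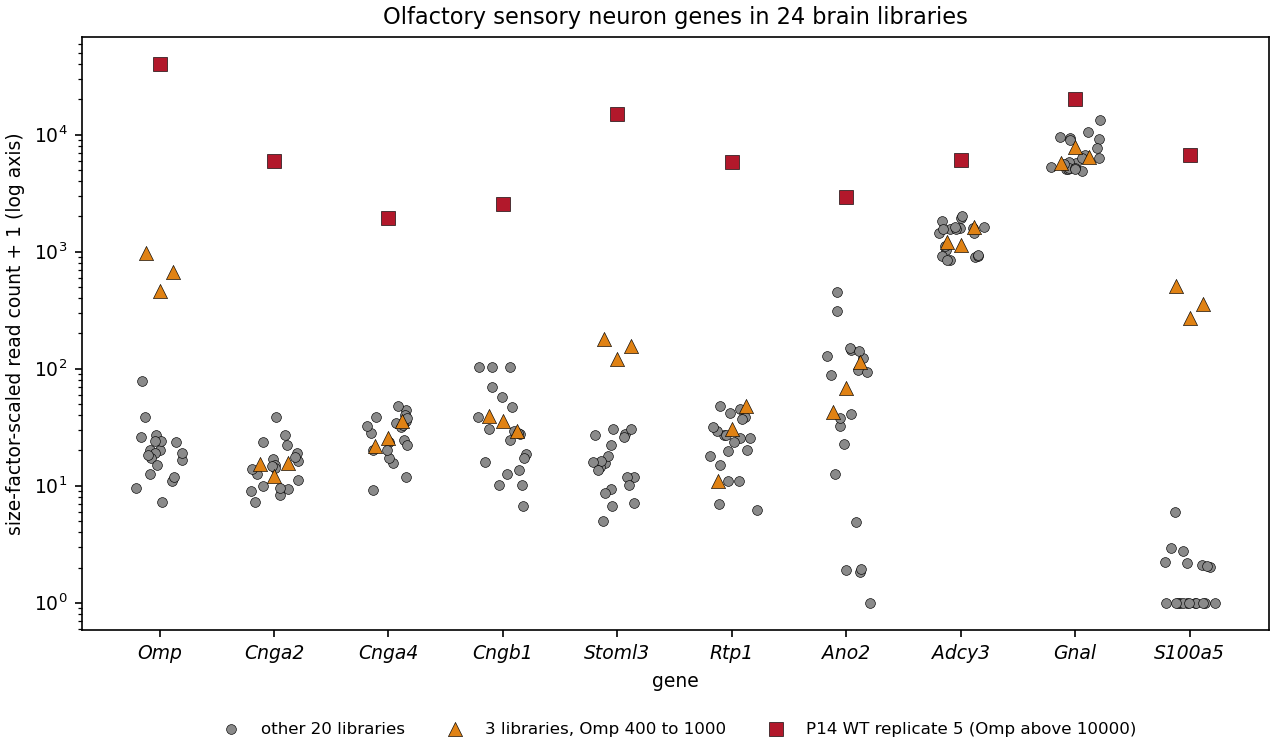
Size-factor-scaled read count plus 1 (log axis) of the 10 genes in each of the 24 libraries; the square is P14 WT replicate 5, triangles are the 3 libraries with Omp of 400 to 1000, circles the other 20. The square is highest for 10 of 10 genes, while the triangles leave the circles only for Omp, Stoml3 and S100a5.

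Omp (ENSMUSG00000074006, chr7:98143359-98145502, minus strand) reached 40401 in P14 WT replicate 5. It stood at 968 in P14 KO replicate 4, 457 in P14 KO replicate 6 and 672 in P25 KO replicate 4. In the other 20 libraries it ran from 6.30 through a median of 18.1 to 77.8. P14 WT replicate 5 was thus 41.8 times the next library, and the intermediate libraries held 1.13% to 2.39% of its level. The gene lies inside an intron of Capn5 on the same strand with 0 shared exon bases. Capn5 itself was at 1072 in P14 WT replicate 5 and at a median of 2380 in the 20 libraries, the opposite order.

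S100a5 (ENSMUSG00000001023, chr3:90608523-90611780, plus strand) was 6711 in P14 WT replicate 5. Its 3 intermediate values were 504, 271 and 359 in the same order as for Omp. The 20 other libraries had a lowest value of 0, a median of 0 and a highest value of 4.93. This gap is the cleanest of the 10: the lowest intermediate library was 5.52 log2 units above the highest of the 20. S100a5 passed the mean filter only through the 4 libraries with much Omp.

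Stoml3 (ENSMUSG00000027744, chr3:53488653-53508502, plus strand) was 14969 in P14 WT replicate 5 and 177, 119 and 156 in the intermediate libraries. The others ran from 4.03 through 14.0 to 29.6, so the 3 sets did not overlap.

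These 3 genes kept different proportions in the sets. Per 100 units of Omp, P14 WT replicate 5 held 37.1 of Stoml3, and the intermediate libraries, in the order used for Omp, held 18.3, 26.1 and 23.2. For S100a5 the order was the other way round, with 16.6 in P14 WT replicate 5 against 52.1, 59.4 and 53.4. Cnga2 was at 14.9 per 100 Omp in P14 WT replicate 5 and at 1.48, 2.46 and 2.16 in the 3 others, where its level was no higher than in libraries with little Omp. The intermediate libraries therefore held relatively more S100a5 and less Stoml3 and Cnga2 per Omp in 3 of 3 libraries, described here with no test.

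The channel subunits formed a group that was high in P14 WT replicate 5 alone. Cnga2 (ENSMUSG00000005864, chrX:71991849-72010218, plus strand), the subunit that can form a channel by itself, was 6000.0 there, 14.3, 11.2 and 14.5 in the intermediate libraries, and 6.24 to 38.0 with a median of 13.4 in the 20 others. Cnga4 (ENSMUSG00000030897, chr7:105404568-105408742, plus strand), a modulatory subunit, was 1958 against 20.9, 24.5 and 35.1 and against 8.17 to 46.8 (median 28.9). Cngb1 (ENSMUSG00000031789, chr8:95239045-95306585, minus strand), the beta subunit shared with rod photoreceptors, was 2569 against 38.6, 34.6 and 28.2 and against 5.72 to 103 (median 27.0). For all 3 subunits the intermediate libraries lay within the range of the 20. The other cyclic-nucleotide channel genes stayed low in P14 WT replicate 5: Cnga1 was 2.62, the cone subunits Cnga3 and Cngb3 were each 14.8. Cnga1 and Cngb3 were still highest there, as were 5 of the 6 genes of the family (share over all genes 19.3%). Only 3 of the 6 exceeded every other library more than 4 times (share 2.35%).

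Ano2 (ENSMUSG00000038115, chr6:125690419-126040126, plus strand) was 2958 in P14 WT replicate 5 and 41.9, 67.3 and 112 in the intermediate libraries. It ran from 0 through 63.7 to 448 in the 20 others. That made it the most variable of the 10 genes among those 20 libraries, with an SD of 2.70 log2 units. Its relatives Ano1 (874) and Ano6 (2359) were also above the range of the 20 in P14 WT replicate 5, while Ano3 (666) and Ano5 (50.7) were inside it.

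Rtp1 (ENSMUSG00000033383, chr16:23429133-23433960, plus strand), the receptor chaperone, was 5877 in P14 WT replicate 5. It was 9.92, 29.6 and 47.1 in the intermediate libraries and 5.25 to 46.6 (median 24.6) in the others, which overlap. Its relative Rtp2 followed the same pattern (3159 against a highest other value of 10.7), whereas Rtp3 was 0 there. Of the 4 genes of the family, 3 were highest in that library (share over all genes 19.3%), 2 of them by more than 4 times (share 2.35%).

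Adcy3 (ENSMUSG00000020654, chr12:4133103-4213525, plus strand) and Gnal (ENSMUSG00000024524, chr18:67088216-67226792, plus strand) differed from the other 8 genes in being plentiful in every library. Adcy3 was 6098 in P14 WT replicate 5, 1220, 1147 and 1615 in the intermediate libraries, and 841 to 2027 (median 1503) in the others. Gnal was 20226, then 5764, 7890 and 6399, then 4891 to 13363 (median 6048). P14 WT replicate 5 thus exceeded the next library 3.01 times for Adcy3 and 1.51 times for Gnal. In the 20 libraries their RNA goes against the label of olfactory sensory neuron genes, since Omp was at most 77.8 there. Adcy3 was the sole adenylyl cyclase of 9 that was clearly raised in P14 WT replicate 5; Adcy4 (255, highest of the 20 at 254) barely passed and Adcy1 (5687) was below the 20 (16238 to 106693). The related G protein gene Gnas was 775 there, just under the 789 to 3017 of the 20. Adcy3 shares 1380 exon bases with Cenpo and Gnal 852 with Mppe1, both on the opposite strand, and those neighbours were at 169 and 344 in P14 WT replicate 5.

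On a scale of value per kilobase of exon, which allows genes to be compared, the levels in P14 WT replicate 5 ran in the order Omp (18844), S100a5 (15535), Stoml3 (6962), Cnga2 (1939), Rtp1 (1884), Gnal (1810), Adcy3 (976), Cnga4 (735), Ano2 (549) and Cngb1 (275). Cnga2, Rtp1 and Gnal lie close together in it. In the 20 libraries the order of the medians per kilobase was led by Gnal (541) and Adcy3 (241), followed at a distance by Ano2 (11.8) and Cnga4 (10.8), with S100a5 last at 0.

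Other genes of the odour response shared the pattern in part. Of 10 listed, 5 were highest in P14 WT replicate 5 (share over all genes whose mean reached 10, 19.3%). Of the 10, 3 exceeded every other library more than 4 times (share 2.35%). Those 3 were Gfy (15504, highest of the 20 at 40.8), a Golgi protein of these neurons, Umodl1 (8036 and 22.3) and Rtp2. Ric8b, which assists the G protein, was 5488 against 1186 to 1982. Gng13, the G protein gamma subunit, was 905 and lay within the 84.7 to 1388 of the 20. Slc24a4, Pde1c, Ncam2 and Reep6 were likewise inside their ranges over the 20. All 9 listed transcription factors of these neurons were highest in P14 WT replicate 5 (share over all genes 19.3%). They were led by Atf5 (16170 against 371 to 600), Ebf3 (5442 against 18.2 to 1697), Ldb1 (4789 against 2293 to 3923) and Ebf2 (4742 against 30.7 to 429). In the intermediate libraries 0 of these 9 and 0 of the 10 were above all 20 (share over all genes 3.27%). Both lists were written with these data known, so nothing is read from their counts.

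Olfactory receptor genes, of which each sensory neuron is known to express a single one, were almost all detected in P14 WT replicate 5. Of 1170 annotated genes named Olfr, 1063 (90.9%) had at least 1 read there and 778 at least 10 reads, beside 90 to 102 genes with a read in the intermediate libraries and 53 to 93 in the 20 others. Their summed value was 26207, 557 to 619 and 435 to 791 in the 3 sets. The intermediate sums, with Omp at 457 to 968, lay inside the range of the 20, although P14 KO replicate 4 (102) and P25 KO replicate 4 (101) had more receptor genes with a read than any of the 20. The median receptor with a read was at 15.7. Olfr536 on chromosome 7 was highest at 1191, or 4.55% of the receptor total, followed by Olfr1507 (420) and Olfr727 (307) on chromosome 14, and the top 10 held 12.1%.

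Receptor reads in the 20 libraries came from few genes. Olfr613 (median 330), Olfr287 (97.8), Olfr78 (28.6), Olfr558 (15.1), Olfr692 (11.4) and Olfr543 (9.59) each had a read in 20 of 20 libraries and together held 75.5% of the value. With those 6 left out, the sum was 25651 in P14 WT replicate 5, 171 to 206 in the intermediate libraries and 128 to 212 in the others. Of the receptor genes, 738 had a read in P14 WT replicate 5 and in none of the 20 libraries. Detection spread over the genome: 269 of 306 genes on chromosome 2, 224 of 246 on chromosome 7 and 39 of 39 on chromosome 14 had a read. Trace amine receptors, used by a small class of the same neurons, had a read in 14 of 16 genes with a sum of 338, beside 0 to 5.43 in the 20. Vomeronasal receptors were not raised, at a sum of 328 beside 294 to 519, although 71 of 501 genes had a read against 20 to 47.

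**Figure D2:**
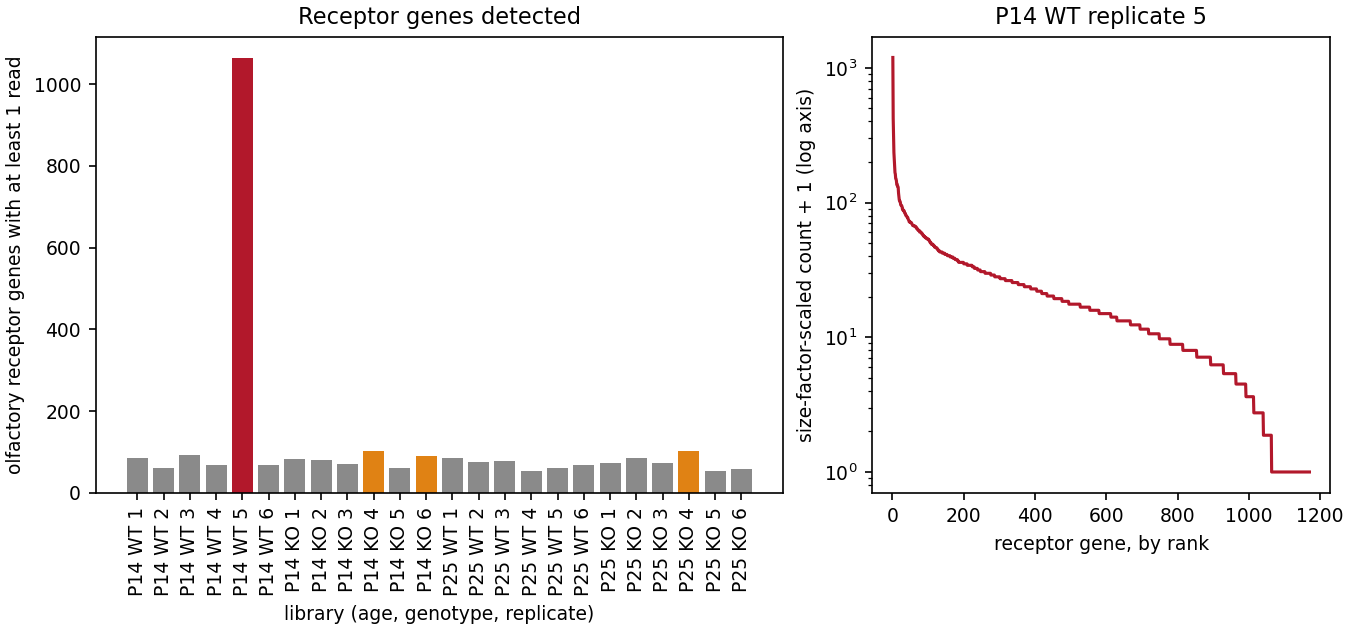
Left: number of olfactory receptor genes with at least 1 read in each library (bars from 0; red for P14 WT replicate 5, orange for the 3 libraries with Omp of 400 to 1000, grey for the rest). Right: size-factor-scaled count plus 1 (log axis) of the 1170 receptor genes in P14 WT replicate 5 in order of rank. The red bar stands at 1063 and the others between 53 and 102.

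P14 WT replicate 5 also held RNA of the cells that surround these neurons in the nose. The summed value of 8 sustentacular cell genes was 96202 there and at most 414 in the 20 others, with Cyp2a5 (42165), Cyp2g1 (20751), Cbr2 (14917) and Sec14l3 (12832) at the top and 7 of 8 more than 4 times above every other library. The eighth, Ugt2a1, had 0 in all 24 libraries. The sum of 12 nasal gland genes was 105885 against at most 64.7, with Bpifb4 (47157), Bpifb3 (20686), Bpifa1 (12657) and Gpx6 (11063) at the top, 8 of 12 at a value of at least 10 and more than 4 times above every other library. The odorant-binding protein genes Obp1a (1.75), Obp1b (0.87), Obp2a (1.75) and Obp2b (0) were near or at 0. Genes of microvillous cells (5 of 5) and blood and marrow (10 of 10) were highest in that library, as were 6 of 8 cartilage and bone genes. The share over all genes whose mean reached 10 was 19.3%. More than 4 times above every other library were 2, 3 and 4 of these lists (share over all genes 2.35%). Among the cartilage and bone genes were Ibsp (3976 against 0 to 24.6) and Dmp1 (3522 against 29.3 to 407). Summed skeletal muscle genes were not, at 148 beside 94.8 to 774. In the intermediate libraries the sustentacular sums were 121 to 193 and the gland sums 15.4 to 38.6, inside the ranges of the 20. The cartilage and bone sums there were 1502 to 2355, above the highest of the 20 (873), with Acan (578 to 1045) and Sp7 (655 to 896) the largest. Only these 2 of the 8 genes lay above all 20 in all 3 intermediate libraries (share over all genes 3.27%). Bglap (2.04 to 9.41, highest of the 20 at 60.2), Dmp1 (46.9 to 127) and Col2a1 (82.1 to 223, highest at 487) lay inside the ranges of the 20. Col10a1, Matn1 and Ibsp overlapped theirs. The part of these other cells in the level of each sensory neuron gene was not tested.

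Among all genes outside the 10, the 20 that stood furthest above every other library in P14 WT replicate 5 included no olfactory receptor. They were headed by Bpifb3 and Bpifb4, secreted proteins of nasal glands, and by Chil6, a chitinase-like protein, Vmo1, Scgb1c1, a secretoglobin, and Slc22a20, an organic anion transporter; Chil6 was 8420 there against at most 3.31 elsewhere. Cyp2a5, Cyp2g1, Fmo6, Aox2 and Sult1c1, enzymes that modify foreign compounds, were also among the 20, as was Gfy at the last place.

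Many markers of the olfactory bulb, the brain region these neurons project to, were high in all 4 libraries with much Omp. The mean log2(value + 1) of 6 mitral and tufted cell genes was 9.65 in P14 WT replicate 5, 9.80 to 10.55 in the intermediate libraries and 5.20 to 7.07 in the 20. That of 9 bulb interneuron genes was 11.46, then 11.62 to 12.26, then 6.80 to 9.56. All 3 intermediate libraries lay above all 20 for 3 of the 6 and 7 of the 9 genes (share over all genes 3.27%). P14 WT replicate 5 did so for 3 and 7. The lists were written with these data known, so nothing is read from their counts. Exceptions were Lhx1, at 10.5 to 24.2 in the 4 libraries beside a median of 104 in the 20, and Tbr1 (1075) and Etv1 (1543), which in P14 WT replicate 5 were under the medians of the 20 (2563 and 3277). Tbx21, a transcription factor of mitral and tufted cells, was 628 in P14 WT replicate 5, 1392, 1036 and 557 in the intermediate libraries and at most 10.1 in the others. Ms4a15 (1103, then 2132, 1688 and 1237, at most 6.38 in the 20), Cdhr1, a cadherin of mitral cells (11101, then 21889, 17603 and 7414, at most 608), and Sp8, a factor of bulb interneurons (1792, then 2711, 2705 and 1846, at most 165), also stood above the 20 in all 4 libraries. The 5 pan-neuronal genes, which sensory neurons can also express, averaged 13.87 in P14 WT replicate 5, below the 14.13 to 15.05 of the 20. Of 4 markers of ensheathing glia, which wrap the axons of the sensory neurons, 2 lay above the 20 in all 4 libraries. The share over all genes for the 3 intermediate libraries was 3.27%. Frzb was 1612 in P14 WT replicate 5, 2441, 1857 and 1371 in the intermediate libraries and 151 to 740 in the others. Prss56 was 189, then 248, 179 and 97.5, then 0 to 54.6, while Npy and Ngfr lay inside the ranges of the 20.

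**Figure D3:**
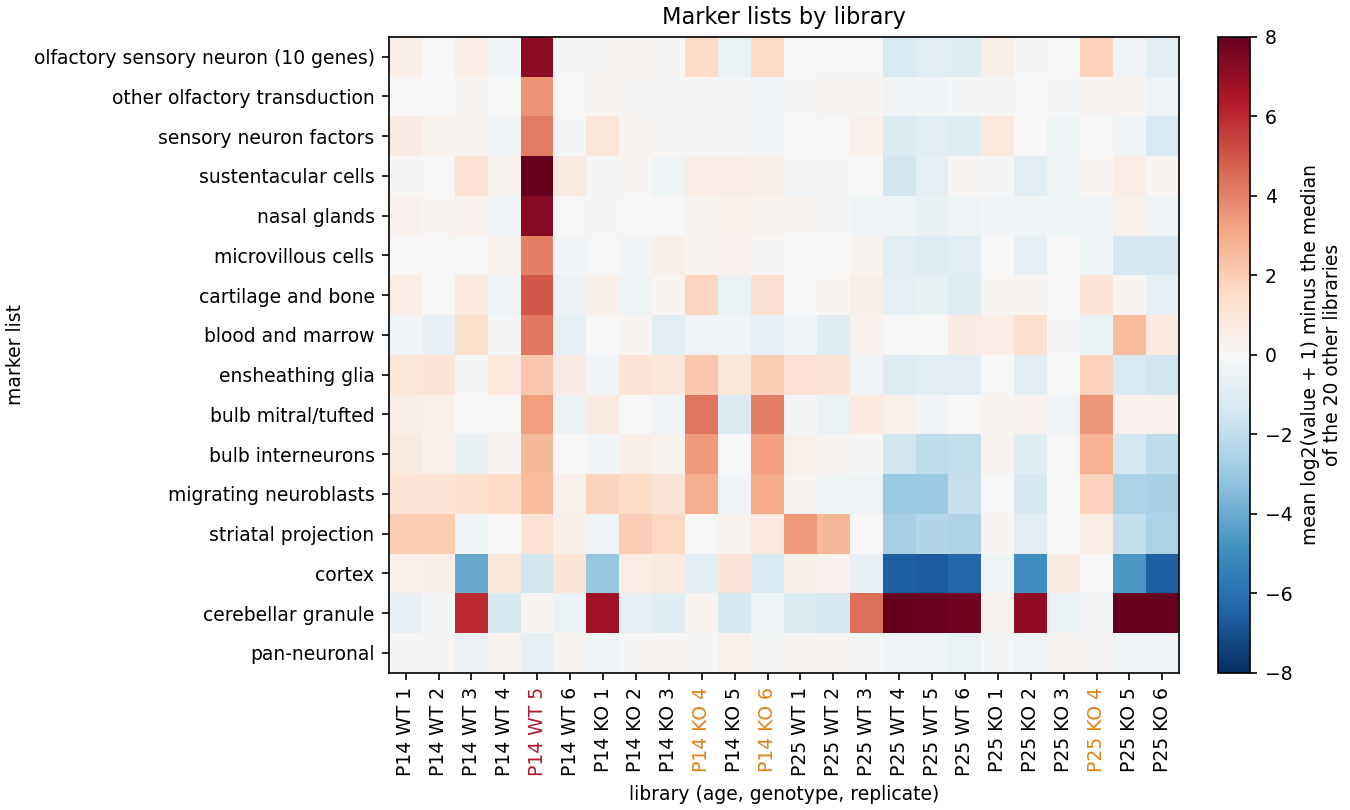
Mean log2(value + 1) of each marker list (rows) in each library (columns), minus the median of the 20 libraries with Omp below 400; red is higher, blue lower, and the colour scale ends at 8 units either way. The column of P14 WT replicate 5 is red for sensory neuron, sustentacular and gland lists, and the bulb lists are red in that column and in the 3 orange-labelled ones.

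The genes most like Omp across the 24 libraries were found by the root mean square difference of their log2(value + 1) profiles, each centred on its median over the 20 libraries. Stoml3 was nearest of all at 1.01, and S100a5 was at 1.49. Of genes outside the 10, the nearest were Sult1d1, a sulfotransferase gene (1.08; 2352 in P14 WT replicate 5, 12.1, 7.13 and 7.70 in the intermediate libraries, at most 2.96 elsewhere), and 5730403I07Rik (1.35). They were followed by Klhl30 (1.52; 184 in P14 WT replicate 5, then 345, 289 and 253) and Doc2g (1.56; 1574, then 2404, 2171 and 1569), which were as high or higher in the intermediate libraries. Cnga2 (2.02), Rtp1 (2.13), Cngb1 (2.18) and Cnga4 (2.37) were further off, and Gnal (2.77), Adcy3 (2.79) and Ano2 (3.31) furthest.

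In the 20 libraries with little Omp, several of the genes differed between libraries of different regional makeup. Split at a Cbln3 value of 1000, 9 libraries were rich in cerebellar granule cell RNA and 11 were not. Ano2 had a median of 3.89 (0 to 151) in the former and 123 (11.5 to 448) in the latter, and was at most 3.89 in P25 WT replicates 4, 5 and 6 and P25 KO replicates 5 and 6. Adcy3 had medians of 921 (841 to 1549) and 1603 (1431 to 2027), and Gnal 5325 (4891 to 6319) and 8996 (5064 to 13363). Rtp1 went the other way, with 36.4 (16.9 to 46.6) and 18.6 (5.25 to 30.5). Its values from 36.4 to 46.6 were all in second-batch P25 libraries. In P14 WT replicate 3, P14 KO replicate 1, P25 WT replicate 3 and P25 KO replicate 2, also with Cbln3 above 1000, Rtp1 was 24.6, 26.0, 16.9 and 26.0. P25 KO replicate 4, of the second batch but with Cbln3 at 29.9, had 47.1. The parts of batch and region in Rtp1 were not tested. Cnga4 was at 19.1 (8.17 to 32.1) and 34.6 (22.8 to 46.8). The ranges of the classes overlapped for each of these genes, and they are described with no test because the split was made on the data. Omp had medians of 23.2 and 18.1 and S100a5 of 0 and 0.

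Gnal was highest of the 20 in P25 WT replicates 1 and 2, at 13363 and 10508. The striatal projection neuron list was highest in the same libraries, at a mean log2(value + 1) of 12.26 and 11.52 against 6.24 to 10.89 in the other 18. Ano2 was also highest in these libraries (448 and 308). Cngb1 behaved differently from both: it was 102 in P14 WT replicate 3, 102 in P14 KO replicate 1, 103 in P25 KO replicate 1 and 68.3 in P14 WT replicate 1, and at most 56.2 in the others, and the high libraries belong to both Cbln3 classes.

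**Figure D4:**
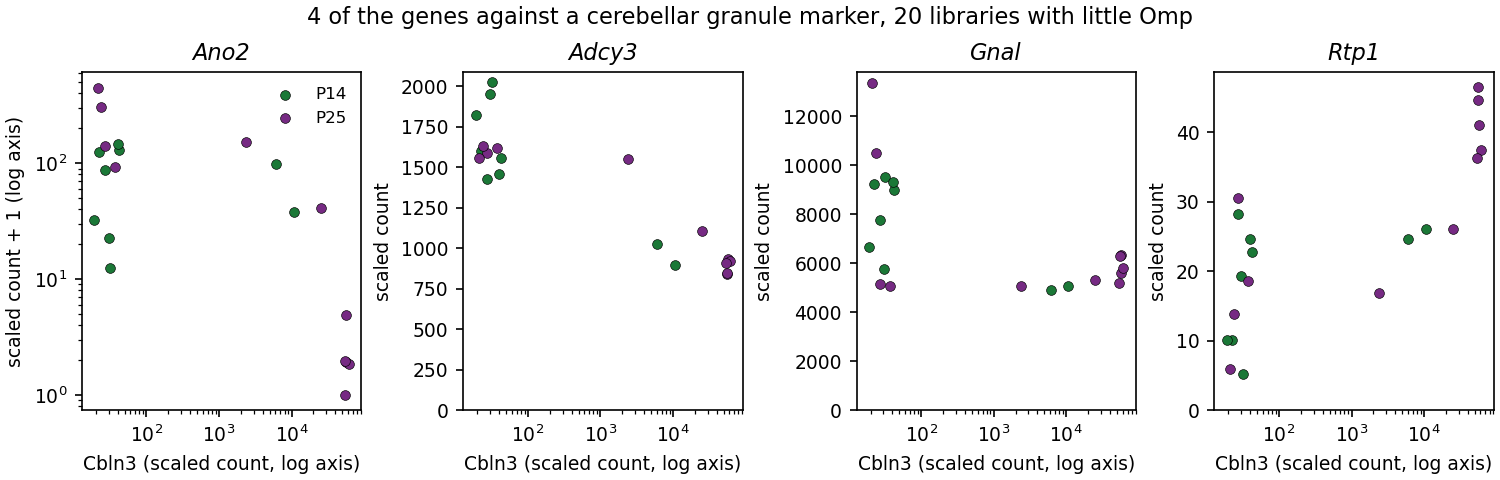
Ano2 (value + 1, log axis), Adcy3, Gnal and Rtp1 (linear axes from 0) against Cbln3 (log axis) in the 20 libraries with Omp below 400; each point is a library, green for P14 and purple for P25. The medians of Ano2, Adcy3 and Gnal are lower, and that of Rtp1 higher, where Cbln3 is above 1000.

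For the comparison the study was built for, KO against WT, 0 of the 10 genes passed limma's test at either age (adjusted p under 0.05 over 18267 genes; background 0% at P14 and 0% at P25), and 0 had an unadjusted p under 0.05 (background 3.03% and 0.536%). EdgeR also called 0 at both ages (background 0%), with 4 at an unadjusted p under 0.05 at P14 (background 4.76%) and 1 at P25 (background 0.903%). DESeq2, which gave an adjusted p for 4 of the 10, called 0 at P14 (background 0.00562%) and 1 at P25, S100a5 (adjusted p = 5.06e-21, background 0.0225%). At an unadjusted p under 0.05, given for the same 4 genes, it had 2 at P14 (background 5.01%) and 1 at P25 (background 2.22%). The fits hold P14 WT replicate 5, for whose high values the genes were picked. Nothing is therefore read from the edgeR and DESeq2 counts. The S100a5 call sets 6 P25 WT libraries at 0 against P25 KO libraries whose lowest, median and highest values were 0, 1.48 and 359. The highest was replicate 4. Limma gave 2.11 (SE 1.74, adjusted p = 1), and without the 4 libraries 0.83 (SE 0.43). S100a5 was at 0 to 4.93 in the 20 libraries and entered the tested genes only through its high ones. Its call and differences are therefore not read.

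Omp at P14 ran from 15.6 through 19.2 to 40401 in WT and from 6.30 through 24.4 to 968 in KO, which overlap. The fitted KO minus WT difference was -0.56 (SE 1.48) on the log2(value + 1) scale. Without P14 WT replicate 5 it was 1.09, and without all 4 libraries of high or intermediate Omp it was -0.70 (SE 0.43), given as a description because Omp chose those libraries. At P25 Omp ran from 8.49 through 11.2 to 23.2 in WT and from 14.1 through 24.1 to 672 in KO. The difference was 1.58 (SE 1.48, adjusted p = 1), and, again as a description, 0.78 (SE 0.38) without P25 KO replicate 4 and the other 3 libraries. It was 0.64 in the first batch and 2.52 in the second, which holds P25 KO replicate 4.

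All 10 genes had lower fitted values in KO at P14, with a median difference of -0.86 beside -0.0028 over all genes. This shared direction depended on which libraries were kept. Without P14 WT replicate 5, but with P14 KO replicates 4 and 6, 6 genes were positive. These were Omp at 1.09, Stoml3 at 1.19, S100a5 at 1.53, Cnga2 at 0.33, Rtp1 at 0.15 and Gnal at 0.08. Cnga4 at -0.43, Cngb1 at -0.23, Ano2 at -0.25 and Adcy3 at -0.23 stayed negative. Without all 4 libraries of high or intermediate Omp, again as a description, the median was -0.22. Cnga2 (0.48) and Gnal (0.13) were positive there, and the other genes ran from -0.85 (S100a5) to -0.03 (Adcy3). S100a5 was at 0 to 4.93 in the libraries left, so its value is not read. At P25, 8 were higher and 2 lower in KO, with a median of 0.55 beside -0.00079. The 95% intervals were wide: for Omp from -3.67 to 2.54 at P14 and from -1.53 to 4.68 at P25, and for Adcy3, the narrowest, from -1.10 to 0.04 and from -0.51 to 0.63. The difference between the KO effects of the 2 ages was called for 0 of 10 genes by limma and 0 by edgeR (background 0% in each). DESeq2, with a p for 4 of the 10, called 1, S100a5 (background 0.00562%). At an unadjusted p under 0.05 there were 0 in limma (background 1.03%), 4 in edgeR (background 1.55%) and 2 of 4 in DESeq2 (background 1.97%). These fits also hold P14 WT replicate 5, so nothing is read from the edgeR and DESeq2 counts. S100a5 entered the tested genes only through its high libraries, so its call is not read. Of the other 10 odour-response genes, 0 passed in either direction at either age (medians -0.33 at P14 and -0.12 at P25).

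**Figure D5:**
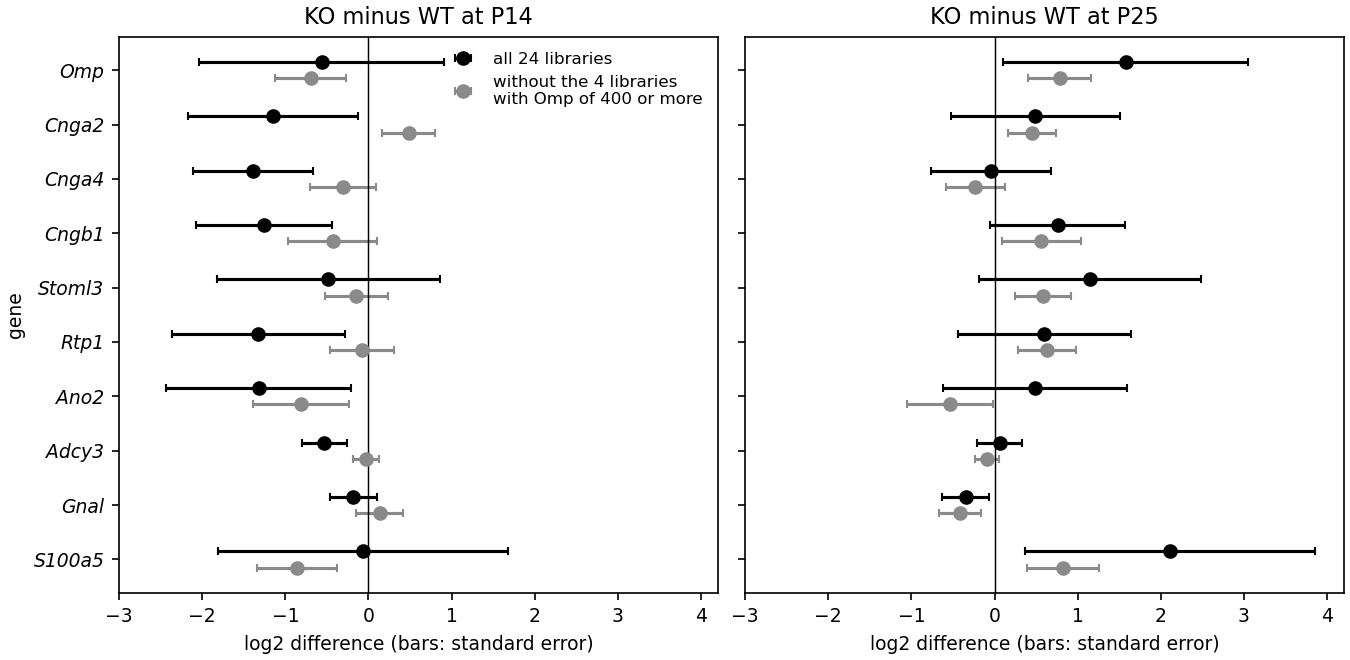
KO minus WT difference in log2(value + 1) of the 10 genes at P14 (left) and P25 (right); points are limma estimates and bars their standard errors, black with all 24 libraries and grey without the 4 libraries with Omp of 400 or more. Black bars for Omp span 1.48 on each side, grey ones 0.43 at P14 and 0.38 at P25.

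Between the ages, 1 of the 10 genes passed in WT mice: Cngb1 was lower at P25 by limma (background 28.1%, or 14.4% for lower). It ran from 26.7 through 53.2 to 2569 at P14 and from 5.72 through 13.2 to 56.2 at P25, which overlap. The difference was -2.55 (SE 0.82, adjusted p = 0.0271), and -1.51 (adjusted p = 0.0248) without P14 WT replicate 5. It was -1.34 in the first batch and -3.75 in the second, and passed in neither alone. It also missed limma's threshold without P25 WT replicate 2 (adjusted p = 0.0506) or P25 WT replicate 4 (adjusted p = 0.059). The same held without the batch term (0.0581), with only the groups compared (0.0812) and with a block per replicate number (0.0565). That block ties same-numbered libraries of both ages, which no label links. Cbln3 was above 1000 in 4 of the 6 P25 WT libraries and in 1 of the 6 P14 WT libraries. With only the libraries at or below 1000 the difference was -2.55 with adjusted p = 0.784. That fit holds P14 WT replicate 5, and P25 KO replicate 4 is its only second-batch library of P25.

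Other counts for age in WT moved with the method. Leaving out the 4 libraries gave 4 calls, all lower at P25 (background 43.4%, or 22% for lower). They were Cngb1 (-1.49), Ano2 (-1.46), Adcy3 (-0.43) and S100a5; the last is at 0 to 4.93 in the 20 libraries and entered the tested genes only through those left out, so its call is not read. Restricting the fit to libraries with Cbln3 at most 1000 gave 0 (background 0%), where Ano2 was 1.41, of the other sign. This restricted fit holds the 4 libraries again. Ano2 was at 21.8, 110 and 2958 (lowest, median and highest) in P14 WT and at 0, 75.8 and 448 in P25 WT. EdgeR called 7 of the 10 (background 28%) and DESeq2 3 of the 4 it gave an adjusted p (background 34.6%). Both fits hold P14 WT replicate 5, for whose high values the genes were picked, so nothing is read from these counts. EdgeR gave -6.01 for Omp, -5.34 for Cnga2 and -5.28 for Stoml3. Limma without the 4 libraries gave -0.79, -0.69 and -0.01 for them. S100a5 was among the DESeq2 calls and is again not read. Of the other 10 odour-response genes, limma called 0 higher and 2 lower at P25 (background 13.7% and 14.4%).

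In KO mice 0 of 10 passed between the ages (background 11.8%), with 0 at an unadjusted p under 0.05 (background 32%). EdgeR and DESeq2 called 0 as well (background 11.9% and 19%), with 0 unadjusted in each (background 30% and 33%). DESeq2 gave a p for 4 of the 10. Without the 4 libraries limma called 2 (background 46.8%): Rtp1 higher at P25 (1.16, SE 0.39, adjusted p = 0.0246) and Adcy3 lower (-0.49, SE 0.16, adjusted p = 0.0231). In median, Rtp1 was also higher and Adcy3 lower where Cbln3 was high, with the highest Rtp1 values in the second batch of P25. Cbln3 was above 1000 in 3 of the 5 P25 KO and 1 of the 4 P14 KO libraries left. The part of the region mix in these age differences was not tested. A fit on libraries of low Cbln3 gave 1.10 for Rtp1 (adjusted p = 0.927) and 0.19 for Adcy3 (adjusted p = 0.946). That fit holds the 4 libraries again, and P25 KO replicate 4 is its only second-batch library of P25. It therefore cannot separate region from batch or from those libraries. The age and KO comparisons share libraries, P14 WT replicate 5 among them, so their values are not independent.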

How the data were processed

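The RNA of 24 brain samples was prepared with Illumina's TruSeq RNA kit (version 2), per the labels' protocols. Trimmomatic 0.35, TopHat2 2.1.0, HTSeq and DESeq2 on GRCm38 are named in the submitters' processing notes; no annotation, strand setting or filter is given in the sources used here. In the deposited table the value is a signal: each library's read counts after division by its size factor; the unit was read from the values. Whole reads were recovered (100% of nonzero values within 0.01), and 0 sample columns were left unused. GENCODE M21 gave symbols for 45229 of 46078 identifiers (98.2%).

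The 10 genes, the lists and the tests were chosen with earlier results of these data known. Named genes are the 10, up to 4 per list by level, the 10 most like Omp, the 20 genes furthest above all other libraries in P14 WT replicate 5 (value at least 200) and the 10 furthest above the 20 libraries in the intermediate ones (mean at least 200); relatives, defining markers and receptors named beyond this were chosen after their values were seen. The plan named edgeR for counts and limma for normalised values, so limma was used: intensity trend, log2(value + 1), which understates changes of low genes, a mean of at least 10, 4 group means and a batch term per age, 18 residual degrees of freedom, Benjamini-Hochberg threshold 0.05. The procedure was tested on simulated data. Unmarked libraries were taken as the first batch. Alternatives were edgeR and DESeq2 on recovered reads, other scalings, filters and pseudocounts, no batch term, each batch, only the groups compared, a replicate block and leaving out libraries; the fit on libraries with Cbln3 at most 1000 was added after seeing the data. No pair of libraries in a group agreed within sampling noise (lowest chi-square per degree of freedom 5.90). Tools were R 4.3.3, limma 3.58.1, edgeR 4.0.16, DESeq2 1.42.0, Python 3.11.15, numpy 2.4.6, pandas 2.3.3 and matplotlib 3.10.9. Promoter windows are RefSeq's.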

Additional observations from a re-analysis of the deposited data

Results flagged for a closer look

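Within each group of 6 libraries, each gene was examined for a library that stood apart from the rest on the log2(value + 1) scale (Dixon's gap over range above 0.625). Of 40 such sets of values 12 held one. The count cannot be set against the chance share of about 1 in 20, because the genes were picked for their high values. Omp defined the sets of P14 WT replicate 5 and P25 KO replicate 4, and S100a5 passed the filter only through libraries with much Omp. The marks on these libraries are therefore a description. In 8 of the 12 it was P14 WT replicate 5: Omp at 40401 (next 77.8), Cnga2 at 6000.0 (next 21.3), Cnga4 at 1958 (43.6), Cngb1 at 2569 (102), Stoml3 at 14969 (29.6), Rtp1 at 5877 (24.6), Adcy3 at 6098 (1954) and S100a5 at 6711 (4.93). P25 KO replicate 4 stood apart for Omp at 672 (next 37.9) and S100a5 at 359 (next 1.94). Cnga2 was low in P25 KO replicate 2 at 8.08, and Cngb1 was high in P14 KO replicate 1 at 102. In P14 KO, replicates 4 and 6 were both high for Omp, so neither stood alone.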

How the results depend on the processing

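Of 189 recomputed counts of called genes, 172 were within 1.5 times the reported one and 17 were not. The KO counts stayed at 0 under all settings except DESeq2, which gave 1 at P25 and 1 for the difference between ages. Both were S100a5, whose calls are not read. For age in WT, reported as 1, the count was 7 with edgeR, 3 with DESeq2, 2 with a pseudocount of 0.1, 0 without a batch term, 0 in the first batch, 2 in the second batch, 0 with only the groups compared, 0 with the replicate block (Cngb1 at adjusted p = 0.0565), 4 without the 4 libraries of high or intermediate Omp and 0 with Cbln3 at most 1000. Leaving out each of the 24 libraries in turn gave 0 to 3: 2 without P14 WT replicate 3, 0 without P25 WT replicate 2 or 4, and 3 without P25 KO replicate 4. For age in KO, reported as 0, it was 2 without the 4 libraries; for that and the KO counts, leaving out any 1 library gave 0 throughout. The cause of these shifts was not tested. Same-numbered WT and KO libraries of an age share a description prefix, and the labels do not say what it marks. At P14, replicates 4 and 5 of both genotypes all carry the same prefix, so it does not define a pair per number there. Their deviations correlated over 0.1 in 5 of 12 cases (range -0.60 to 0.86), and 2 of 12 were best with their own number. At P25 the correlation was 0.74, 0.53, 0.86 and 0.76 for replicates 1, 3, 5 and 6, and -0.42 and -0.60 for replicates 2 and 4. The main fit did not use the numbers as pairs. For the KO counts the replicate block tied same-numbered libraries of an age. For the age counts it tied same numbers across both ages, which share no prefix. The block changed no other count. For low genes the pseudocount sets the size: S100a5 in P14 WT replicate 5 minus the median of the 20 was 16.03 with 0.1, 12.71 with 1 and 10.39 with 5. With 1 library of the highest Omp class, no spread can be given for it.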
